A study of Homo sapiens with 12 samples.

Results

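The endoplasmic reticulum (ER) stress and ATF4 amino acid response was described here through 38 genes, from the stress sensors of the ER to the enzymes that make and charge amino acids. A gene was taken when it stands on the list of this response, and its probes were those annotated to that gene and no other. Of the 38 genes, 36 had such a probe (47 probes of 27578 named for 1 gene), and 35 were tested among 10696 tested genes. ERN1 and HERPUD1 had no probe named for them alone, and the probe of PDIA3 was above background on none of the 12 arrays.

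Total RNA of U373 and U87MG cells, established human glioblastoma cell lines, was hybridised to 12 arrays of the type Illumina HumanWG-6 v3. The 4 groups of 3 biological replicates were U373 cells co-cultured with U87MG cells, U373 cells in monoculture, U87MG cells co-cultured with U373 cells, and U87MG cells in monoculture. All groups grew without any treatment in DMEM with serum, non-essential amino acids, glutamine and pyruvate. A co-culture was indirect: after 3 h of adhesion the lines shared medium for 72 h across a membrane with 0.4 µm pores. U373 cells always sat in the insert and U87MG cells in the bottom well, in monoculture too, so the line and the chamber cannot be told apart. In a co-culture the cells of both lines shared the 3 ml of medium that the cells of 1 line had in a monoculture, so the presence of a partner and the number of cells per volume cannot be told apart either. Nothing but the label "biological" tells how independent the replicates of a group were, so the p-values measure the spread between these arrays.

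Cells meet an overload of unfolded protein in the ER with 3 membrane sensors. ERN1 (IRE1) splices the mRNA of the transcription factor XBP1, ATF6 is cut to release a transcription factor, and EIF2AK3 (PERK) phosphorylates the initiation factor eIF2alpha. XBP1 and ATF6 raise the chaperones and degradation factors of the ER, whereas eIF2alpha phosphorylation favours translation of ATF4, a driver of CHOP (DDIT3), amino acid transporters, synthetic enzymes and tRNA synthetases. Lack of amino acids reaches ATF4 through another eIF2alpha kinase.

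Short promoter elements are known for these arms, and a few are shown because the members are grouped by arm below. RefSeq promoters (GRCh38.p14) were matched for 34 members, and the 250 bases before each start were searched on both strands. The ER stress response element ERSE (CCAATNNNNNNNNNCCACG), known as a site of ATF6 and XBP1 action, was found before 7 of 34 members (20.6%) and before 25 of 27305 genes (0.0916%). Its variant ERSE-II (ATTGGNCCACG) was found before 3 members (8.82%) and 0.0659% of all genes. The C/EBP-ATF response element CARE (TGATGNAA), at which ATF4 acts, was found before 5 members (14.7%) and 3.89% of all genes. The core of the unfolded protein response element UPRE (TGACGTGG) was found before 1 member, HYOU1, where it overlaps an ERSE-II. A match is a description of letters, not of a bound site. Windows with 4 ERSE or ERSE-II and windows with 4 CARE elements are given on the strand of the gene, with the matched element, in either orientation, in capitals. Genes of the ER with an ERSE or ERSE-II were HSPA5 (chr9:125241376-125241424, minus strand), XBP1 (chr22:28800588-28800636, minus strand), SDF2L1 (chr22:21642099-21642139, plus strand) and HERPUD1 (chr16:56931951-56932050, plus strand), the last of which also holds a CARE. 
HSPA5: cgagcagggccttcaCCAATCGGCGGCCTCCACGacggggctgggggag
XBP1: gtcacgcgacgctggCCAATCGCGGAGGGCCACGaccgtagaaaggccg
SDF2L1: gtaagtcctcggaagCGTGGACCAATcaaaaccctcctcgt
HERPUD1: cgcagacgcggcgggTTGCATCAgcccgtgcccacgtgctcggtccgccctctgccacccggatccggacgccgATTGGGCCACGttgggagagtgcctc

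Genes with a CARE in the same window were ASNS (chr7:97872454-97872491, minus strand), CHAC1 (chr15:40953247-40953284, plus strand), ATF3 (chr1:212565201-212565238, plus strand) and AARS1 (chr16:70289671-70289708, minus strand).
ASNS: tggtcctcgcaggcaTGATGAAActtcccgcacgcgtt
CHAC1: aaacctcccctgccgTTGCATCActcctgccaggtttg
ATF3: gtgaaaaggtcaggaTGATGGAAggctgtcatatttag
AARS1: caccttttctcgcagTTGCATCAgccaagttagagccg

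The other members with an ERSE were CALR, CANX, CRELD2, HSP90B1 and PDIA6, so that 7 of the 10 chaperones and cofactors had an ERSE or an ERSE-II. In 14 of 34 members at least 1 of the 4 elements was found, and of the 5 outputs of ATF4 and CHOP only CHAC1 had a CARE in this window.

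Values are log2 intensities after variance stabilization, a scale on which 1 unit is a 2-fold difference for bright probes and a larger one for dim probes. Over all probes Pearson's r was 0.9768 to 0.9888 within a group and 0.9091 to 0.9269 between the lines. The background limit of an array lay between 4.41 and 5.73, with 23.7% to 33.5% of probes above it. U373 cells had the astrocyte and glioma markers GFAP, SOX2, SLC1A3, VIM, NES and CD44 above background on all 6 arrays, whereas GFAP and SOX2 were at background in U87MG cells, as were S100B, AQP4, ALDH1L1 and SLC1A2 in both lines. Of the 5 leukocyte and microglia markers, PTPRC, AIF1 and ITGAM were at background on all 12 arrays, whereas CD68 and CSF1R were above background on all of them, with group means of 6.69 to 10.43 for CD68 and 8.27 to 8.92 for CSF1R. The summed level of this list was 8.57 to 9.23 in U373 co-cultures and 8.58 to 9.30 in U373 monocultures, and its part in the results was not tested.

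One array stood apart. U373 co-culture replicate 2 had the highest level of the 6 U373 arrays for 35 of 35 tested members, against 21.7% of all tested genes, and the highest of all 12 arrays for 32 of 35, against 10.5% of all tested genes. Its members lay a median of 1.35 above the mean of the U373 monocultures, where all tested genes had a median of 0.03, and 23 of 35 lay more than 1 above it, against 2.28% of all tested genes. In U373 co-culture replicate 3 the median was 0.25, and 26 of 35 members were above the monoculture mean (54.8% of all tested genes). Of these, 2 members, DDIT3 and CHAC1, lay above it by more than 1 (0.860% of all tested genes). In replicate 1 the median was -0.08, with 15 of 35 members above the monoculture mean (51.1% of all tested genes). The background limit of replicate 2, 5.07, and its share of probes above it, 28.4%, lay inside the ranges over the other arrays, and a part of either in these values was not tested.

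The 3 U373 co-cultures thus did not form one level for these genes. The SD within the U373 co-cultures had a median of 0.66 over the members and of 0.20 over all tested genes, and 12 of 35 members had an SD above 1 (0.337% of all tested genes). In the other 3 groups the member median was 0.18 to 0.21 and no member had an SD above 1. The order was replicate 2, then 3, then 1 for 29 members and replicate 2, then 1, then 3 for the other 6. Those orders held 18.8% and 12.9% of all tested genes.

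**Figure D1:**
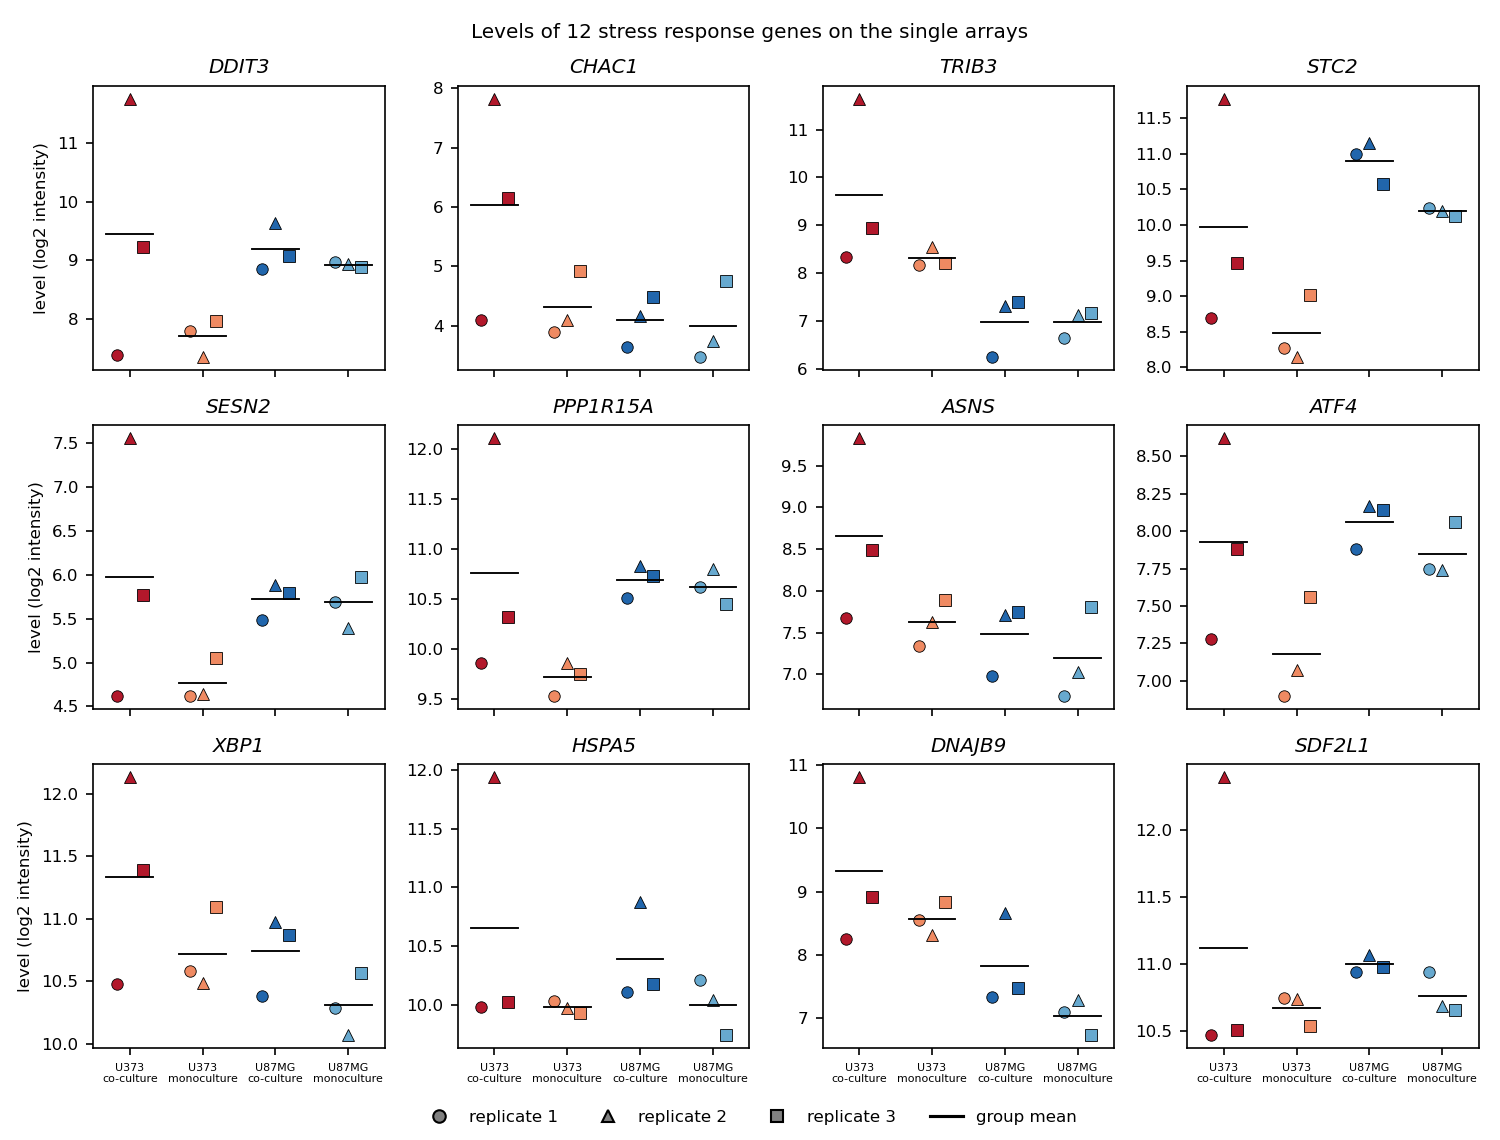
Level (log2 intensity) of 12 members on each of the 12 arrays, with replicates 1 to 3 as circle, triangle and square and the group mean as a line; each panel has its own vertical axis. U373 co-culture replicate 2 is the highest point of every panel, for example 8.62 for ATF4 and 12.39 for SDF2L1, with CHAC1 at 7.82 and SESN2 at 7.56 on the same array.

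No member passed the test between U373 co-culture and monoculture. With limma and Benjamini-Hochberg adjustment at 0.05, 0 of 35 members were called, against 0.112% of all tested genes (12 of 10696). An unadjusted p under 0.05 was found for 14 members, and for 9.51% of all tested genes. The fit shares 1 estimate of spread over the 4 groups, though for these genes the U373 co-cultures spread more than the others. The unadjusted p-values of this comparison may therefore be too small. With only the U373 cultures in the fit the SE rose to 0.85 for DDIT3 and 0.59 for SESN2. The smallest adjusted p of a member was then 0.633 (limma, EIF2AK3). The estimate was above 0 for 33 of 35 members (54.7% of all tested genes), with a median of 0.48 against 0.03 over all tested genes. Levels did not overlap between the groups for 4 members, EIF2AK3, PDIA4, EDEM1 and SHMT2, all higher in co-culture (6.43% of all tested genes). The values below therefore stand array by array.

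Of the sensors, EIF2AK3 had the smallest p of this comparison. It had 5.33, 6.31 and 5.87 in the U373 co-cultures (replicates 1, 2 and 3, the order of all values below), against 5.18, 4.46 and 5.18 in the U373 monocultures. All 3 co-cultures lay above all 3 monocultures, close to the background limit, with a log2 fold change of 0.90 ± 0.27 (SE, limma, adjusted p = 0.285). ATF6 stayed near 1 level, with 9.37, 9.75 and 9.49 in U373 co-cultures and 9.57, 9.38 and 9.63 in U373 monocultures (log2 fold change 0.01 ± 0.16, limma, adjusted p = 0.991).

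Among the transcription factors DDIT3, which encodes the pro-apoptotic factor CHOP, had the widest spread of all members. Its levels were 7.39, 11.75 and 9.22 in the U373 co-cultures, against 7.80, 7.36 and 7.96 in the U373 monocultures. Replicates 2 and 3 lay 4.04 and 1.51 above the monoculture mean and replicate 1 lay among the monocultures. The group means were 9.45 ± 2.19 and 7.71 ± 0.31 (SD, n = 3 each), and the log2 fold change of 1.75 ± 0.68 had an adjusted p of 0.428 by limma.

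ATF4, the central factor of the amino acid arm, is controlled mainly at translation, which arrays do not measure. Its mRNA had 7.28, 8.62 and 7.88 in the U373 co-cultures, against 6.90, 7.07 and 7.56 in the U373 monocultures. In this mean of 3 probes replicates 2 and 3 again stood above all monocultures and replicate 1 did not. Its log2 fold change was 0.75 ± 0.26 (limma, adjusted p = 0.381). The dimmest probe was below the background limit on all 3 U373 co-cultures. Of the others, 1 had replicate 1 above all monocultures too (6.62 against 6.11, 6.51 and 6.55). The brightest had replicate 1 level with the highest monoculture (11.23 against 10.73, 11.23 and 11.17). ATF3, a stress-induced partner of CHOP and ATF4, had 4.74, 6.80 and 5.62 in U373 co-cultures and 4.71, 4.58 and 5.11 in U373 monocultures, as the mean of 2 probes of which 1 was never above background. Its other probe alone had 6.14, 9.42 and 7.44 in U373 co-cultures and 5.78, 5.83 and 6.76 in U373 monocultures, so that the average shortens its range.

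XBP1 had 10.48, 12.13 and 11.39 in the U373 co-cultures, against 10.58, 10.49 and 11.09 in the U373 monocultures. These are levels of its mRNA, and splicing by ERN1 was not measured. NUPR1, a small stress-induced chromatin protein, had 6.09, 8.11 and 6.91 in U373 co-cultures and 5.88, 6.90 and 6.89 in U373 monocultures, so that only replicate 2 stood well clear of the monocultures. CEBPB, a leucine zipper factor that pairs with CHOP, moved least of the 6, with 12.01, 12.74 and 11.92 in U373 co-cultures and 11.83, 11.95 and 11.68 in U373 monocultures.

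The 5 genes downstream of ATF4 and CHOP had the largest differences as a group on replicates 2 and 3. On replicate 2 DDIT3 stood above each of them (4.04), and on replicate 3 (1.51) it stood below CHAC1 (1.85). On U373 co-culture replicate 2 they lay a median of 3.30 above the monoculture mean (2.39 to 3.52), on replicate 3 a median of 0.99 (0.60 to 1.85) and on replicate 1 a median of 0.04. All 5 lay above every U373 monoculture on replicates 2 and 3 (30.4% and 31.2% of all tested genes) and none on replicate 1 (23.2%). As a group they had the highest median estimate, 1.33, and each had an unadjusted p under 0.05.

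CHAC1, an enzyme that breaks down glutathione, had 4.10, 7.82 and 6.16 in the U373 co-cultures, against 3.90, 4.10 and 4.92 in the U373 monocultures. It was above background on 4 of 12 arrays only, U373 co-culture replicates 2 and 3 and replicate 3 of each monoculture. Without the U373 co-cultures it would not have met the filter of 3 arrays. Its tests, and its part in the values of these 5 genes, thus depend on the group where it was high. TRIB3, a pseudokinase that restrains ATF4 and CHOP, had 8.35, 11.64 and 8.94 in U373 co-cultures and 8.17, 8.55 and 8.21 in U373 monocultures. Replicate 2 stood 3.33 above the monoculture mean, replicate 3 stood 0.63 above it, and replicate 1 stood within the monocultures.

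STC2, a secreted glycoprotein, had 8.69, 11.77 and 9.46 in the U373 co-cultures, against 8.27, 8.15 and 9.02 in the U373 monocultures. SESN2, a leucine sensor that lowers mTORC1 signalling, had 4.62, 7.56 and 5.77 in U373 co-cultures and 4.62, 4.64 and 5.05 in U373 monocultures. PPP1R15A, which encodes the phosphatase subunit GADD34 that reverses eIF2alpha phosphorylation, had 9.86, 12.11 and 10.32 in U373 co-cultures and 9.53, 9.86 and 9.75 in U373 monocultures. In all 3 genes the order was replicate 2, 3, 1, and replicate 1 was level with or inside the monocultures. Their log2 fold changes were 1.50 ± 0.52 for STC2, 1.21 ± 0.48 for SESN2 and 1.04 ± 0.38 for PPP1R15A (limma, adjusted p 0.375 to 0.432).

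The enzymes of amino acid synthesis and tRNA charging moved less. Over the 7 genes the median difference from the U373 monoculture mean was 1.13 on replicate 2, 0.15 on replicate 3 and -0.08 on replicate 1. ASNS, asparagine synthetase, had 7.67, 9.83 and 8.49 in the U373 co-cultures, against 7.34, 7.62 and 7.89 in the U373 monocultures. MTHFD2, of mitochondrial one-carbon metabolism, had 9.20, 10.86 and 9.63 in U373 co-cultures and 8.70, 9.17 and 9.30 in U373 monocultures. In both genes replicates 2 and 3 lay above all monocultures and replicate 1 within them. For ASNS this was the mean of 2 probes, which placed replicate 1 differently. The brighter had 9.34, 11.88 and 10.29 in U373 co-cultures and 9.58, 9.81 and 10.22 in U373 monocultures. The dimmer had 5.99, 7.78 and 6.68 in U373 co-cultures and 5.09, 5.42 and 5.57 in U373 monocultures.

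The serine pathway was uneven. PSAT1, its transaminase, lay 1.35 above the U373 monoculture mean on replicate 2 and 0.59 on replicate 3. This was the mean of 2 probes, of which 1 was never above background, so that the average shortens its range. Its other probe alone had 8.42, 10.84 and 9.44 in U373 co-cultures and 8.12, 8.66 and 8.94 in U373 monocultures. PSPH, its phosphatase, lay 1.13 above on replicate 2 and 0.03 on replicate 3, and PHGDH, its first enzyme, 0.46 above on replicate 2 and 0.13 below on replicate 3. SHMT2, which passes the carbon of serine to folate, had 11.11, 11.64 and 11.13 in U373 co-cultures and 11.06, 10.87 and 11.04 in U373 monocultures. These groups did not overlap, with a difference of 0.30 ± 0.18 (SE, limma, adjusted p = 0.598). AARS1, alanyl-tRNA synthetase, lay 1.09 above the monoculture mean on replicate 2 and 0.15 on replicate 3.

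The ER chaperones and cofactors stood above the monocultures on replicate 2, all 10 of them (30.4% of all tested genes), and 3 of 10 did on replicate 3 (31.2% of all tested genes). Their median difference was 0.98 on replicate 2, -0.04 on replicate 3 and -0.16 on replicate 1. HSPA5, which encodes the chaperone BiP, had 9.98, 11.94 and 10.02 in the U373 co-cultures, against 10.03, 9.97 and 9.93 in the U373 monocultures. DNAJB9, a co-chaperone of BiP, had 8.25, 10.81 and 8.92 in U373 co-cultures and 8.55, 8.31 and 8.84 in U373 monocultures. SDF2L1, a partner of another BiP co-chaperone, had 10.47, 12.39 and 10.51 in U373 co-cultures and 10.75, 10.74 and 10.54 in U373 monocultures. Replicate 2 stood 1.96, 2.24 and 1.71 above the monoculture mean for HSPA5, DNAJB9 and SDF2L1, while replicate 3 stood within 0.35 of it in each gene.

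HYOU1, the nucleotide exchange factor of BiP, stood 1.05 above the monoculture mean on replicate 2 and 0.25 on replicate 3. The secreted stress protein MANF stood 1.08 above it on replicate 2, the co-chaperone DNAJC3 0.91 and the HSP90 of the ER, HSP90B1, 0.70. The stress-induced CRELD2 stood 0.63 above it on replicate 2, and the lectin chaperones CALR and CANX only 0.40 and 0.22. On replicate 3 these 6 genes lay between -0.47 and 0.12 of the monoculture mean. The chaperones together had estimates of -0.02 to 0.76, of which HYOU1 alone had an unadjusted p under 0.05 (0.0444).

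Of the disulfide isomerases PDIA4 had 8.21, 8.63 and 8.16 in the U373 co-cultures, against 7.81, 8.15 and 8.06 in the U373 monocultures, and did not overlap. PDIA6 had 9.65, 10.57 and 10.00 in U373 co-cultures and 9.58, 9.44 and 10.18 in U373 monocultures, with only replicate 2 above all monocultures. In ER-associated degradation, EDEM1, which trims mannose from misfolded glycoproteins, had 6.71, 7.96 and 7.17 in U373 co-cultures and 5.63, 6.62 and 6.63 in U373 monocultures. Every co-culture lay above every monoculture, and the log2 fold change was 0.99 ± 0.30 (SE, limma, adjusted p = 0.287). SYVN1, the ubiquitin ligase HRD1, lay 1.24 above the monoculture mean on replicate 2, and its partner SEL1L lay 0.79 above it at levels of 4.54 to 5.65, around the background limit.

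**Figure D2:**
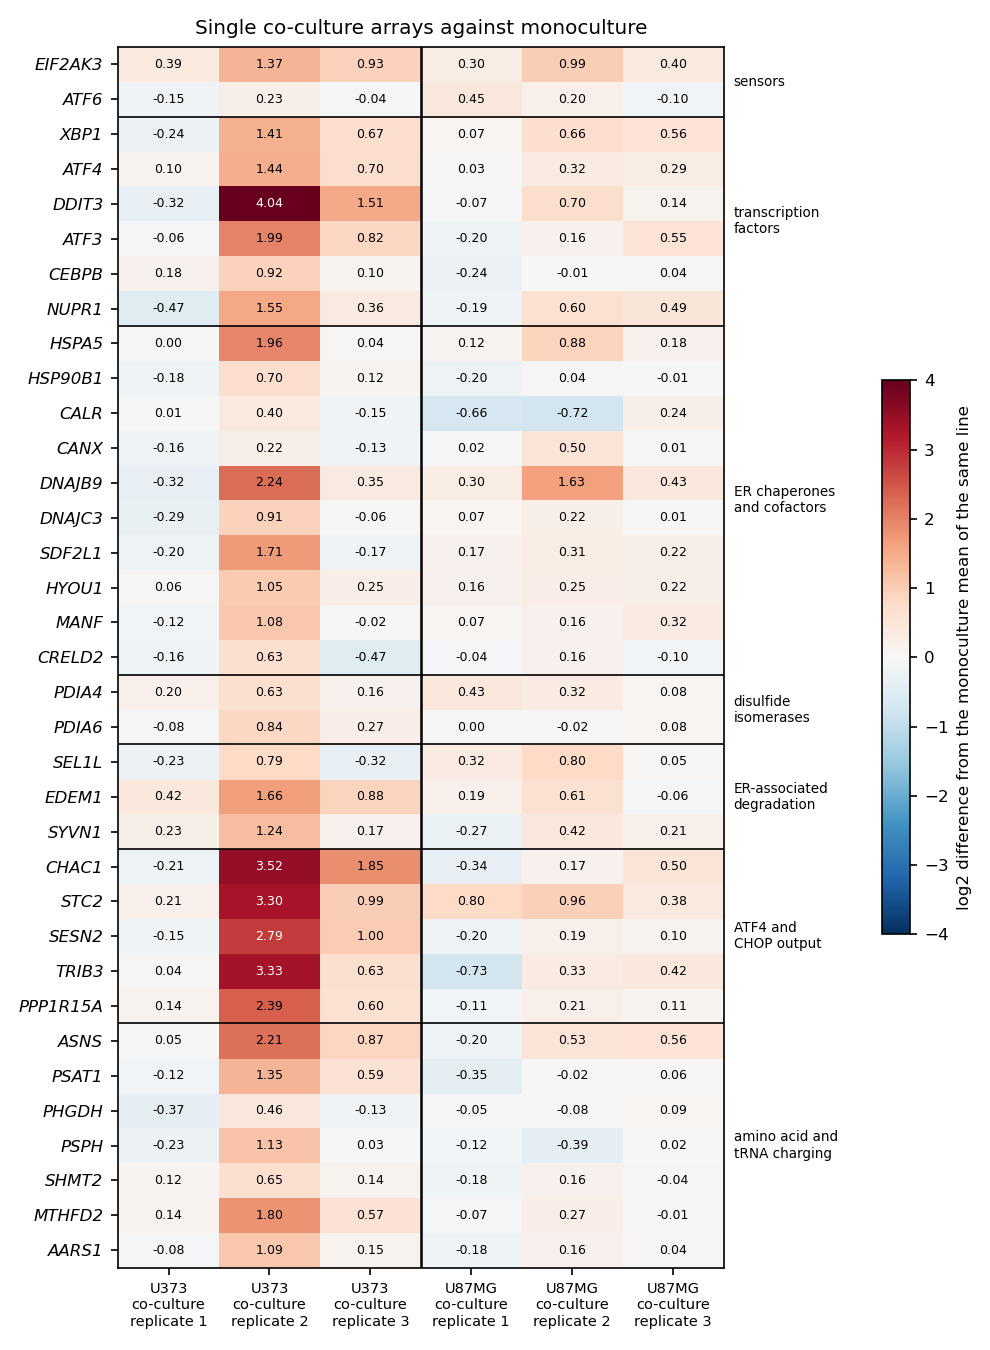
Difference (log2) of each co-culture array from the mean of the 3 monocultures of the same line, for the 35 tested members in 7 groups by role; red is higher and blue lower in co-culture, and the number is printed in each cell. The column of U373 co-culture replicate 2 is above 0 in every row (0.22 to 4.04), with the deepest red among DDIT3 and the 5 ATF4 and CHOP outputs.

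The call in U373 cells turned on which array was left out. Without U373 co-culture replicate 1, 10 of 35 members were higher in co-culture with limma (1.48% of all tested genes), namely EIF2AK3, ATF4, DDIT3, ATF3, EDEM1, CHAC1, STC2, SESN2, PPP1R15A and ASNS, and the median estimate was 0.77. In that fit the co-culture estimate was 2.78 ± 0.48 for DDIT3 (adjusted p = 0.0146) and 2.68 ± 0.45 for CHAC1 (adjusted p = 0.0134), whereas HSPA5 had 1.00 ± 0.39 (adjusted p = 0.194). Without replicate 2 no member was called, 3 had an unadjusted p under 0.05 and the median estimate was 0.14. Without replicate 3 no member was called either, 17 had an unadjusted p under 0.05 and the median was 0.59. Leaving out a replicate by its level is no test, and these counts describe how far 1 array carries the comparison.

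In U87MG cells no member was shown to differ between co-culture and monoculture. None of 35 was called with limma, where 0.0% of all tested genes were called, and none had an unadjusted p under 0.05, against 750 of 10696 tested genes. The shared estimate of spread is widened by the U373 co-cultures for many members, which raises these p-values. With only the U87MG cultures in the fit the SE fell to 0.16 for STC2 and 0.28 for DNAJB9. No member was called there either (limma, adjusted p 0.272 and 0.409 for these 2). The median estimate was 0.17 against 0.07 over all tested genes, and 28 of 35 were above 0 (64.0% of all tested genes). DNAJB9, SDF2L1, HYOU1 and STC2 did not overlap between the groups and were higher in co-culture (10.5% of all tested genes).

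DNAJB9 had 7.34, 8.67 and 7.47 in the U87MG co-cultures, against 7.10, 7.29 and 6.73 in the U87MG monocultures (log2 fold change 0.79 ± 0.48, limma, adjusted p = 0.747). STC2 had 10.99, 11.15 and 10.57 in U87MG co-cultures and 10.24, 10.20 and 10.12 in U87MG monocultures, with a log2 fold change of 0.71 ± 0.52 (limma, adjusted p = 0.779). SDF2L1 and HYOU1 differed by only 0.23 and 0.21. EIF2AK3 had the smallest p of the 4-group limma fit (0.0575). It had 5.19, 5.87 and 5.29 in U87MG co-cultures and 4.96, 4.49 and 5.20 in U87MG monocultures, and here the groups overlapped. CALR lay below the U87MG monocultures on 2 of 3 arrays, with 9.04, 8.99 and 9.94 in U87MG co-cultures and 9.77, 9.65 and 9.69 in U87MG monocultures. PDIA4 had 8.05, 7.94 and 7.70 in U87MG co-cultures and 7.74, 7.55 and 7.57 in U87MG monocultures.

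Of the genes that stood highest in U373 co-culture replicate 2, STC2 was given above, and DDIT3, TRIB3 and SESN2 overlapped between both groups of U87MG cells. DDIT3 had 8.86, 9.63 and 9.08 in the U87MG co-cultures, against 8.98, 8.94 and 8.88 in the U87MG monocultures. TRIB3 had 6.26, 7.32 and 7.41 in U87MG co-cultures and 6.64, 7.14 and 7.18 in U87MG monocultures, and SESN2 had 5.49, 5.88 and 5.79 in U87MG co-cultures and 5.69, 5.39 and 5.98 in U87MG monocultures. Their estimates were 0.26 for DDIT3, 0.01 for TRIB3 and 0.03 for SESN2. CHAC1 had 3.65, 4.16 and 4.49 in U87MG co-cultures and 3.48, 3.74 and 4.76 in U87MG monocultures, above background on the last of these arrays alone.

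Among the U87MG co-cultures the order was replicate 2, 3, 1 for 16 members and replicate 2, 1, 3 for 6, at far smaller differences (17.8% and 25.9% of all tested genes). Its median difference from the U87MG monoculture mean was 0.25 (all tested genes 0.12), and it was the highest of the 6 U87MG arrays for 18 of 35 members (29.6% of all tested genes). Its largest differences were DNAJB9 at 1.63, EIF2AK3 at 0.99, STC2 at 0.96 and HSPA5 at 0.88. The labels give these cultures the same number as the U373 co-culture that stood apart, and do not say whether a number marks the same well. Across the 35 members the differences of the 2 co-culture arrays numbered 2 correlated at r = 0.39 (rho 0.45), those numbered 3 at r = 0.50 (rho 0.49) and those numbered 1 at r = 0.12 (rho 0.01). Over all tested genes r was 0.20, 0.34 and -0.03 for the numbers 2, 3 and 1. These are correlations across genes, which are not independent replicates.

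The difference of the co-culture effects, U373 minus U87MG, passed for 0 of 35 members with limma (0.00935% of all tested genes), and no member had an unadjusted p under 0.05. The estimates had a median of 0.33 against -0.04 over all tested genes, and 29 were above 0 (43.3% of all tested genes). CHAC1, tested only because of its U373 co-culture levels, had the largest, 1.61 ± 0.90 (SE, limma, adjusted p = 0.830). It was followed by DDIT3 with 1.48 ± 0.96 and TRIB3 with 1.33 ± 0.82. The co-culture effects of the lines were therefore not shown to differ. Without U373 co-culture replicate 2 the median fell to 0.06.

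The lines themselves differed in many members. In monoculture 10 of 35 members passed between U373 and U87MG cells, 28.6% against 58.9% of all tested genes. They were split evenly, with 5 higher in U373 cells (27.7% of all tested genes) and 5 lower (31.2%). Higher in U373 cells were HYOU1, DNAJB9, PHGDH, SYVN1 and CANX. Lower were SEL1L, STC2, CEBPB, EDEM1 and ATF4.

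HYOU1 had 9.22, 9.0 and 9.30 in the U373 monocultures, against 7.46, 7.40 and 7.19 in the U87MG monocultures, a log2 fold change of 1.83 ± 0.21 (SE, limma, adjusted p = 1.89e-06). SEL1L had 5.01, 4.77 and 4.79 in U373 monocultures and 6.80, 7.01 and 6.86 in U87MG monocultures, with -2.03 ± 0.25 (adjusted p = 5.08e-06). It was above background on 2 of 3 U373 arrays, so this difference may be cut short by the floor of the array. SYVN1 ran the other way, with 7.08, 7.45 and 7.30 in U373 monocultures and 6.78, 6.25 and 6.50 in U87MG monocultures. Thus the ligase was higher and its membrane partner lower in U373 cells, and in neither gene did the lines overlap.

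PHGDH had 13.03, 13.25 and 13.10 in the U373 monocultures, against 11.95, 11.74 and 11.94 in the U87MG monocultures (log2 fold change 1.25 ± 0.18, limma, adjusted p = 2.81e-05). STC2 was lower in U373 cells by the values given above, at -1.71 ± 0.52 (limma, adjusted p = 0.0107), and DNAJB9 was higher at 1.53 ± 0.48 (adjusted p = 0.0132). CEBPB had 11.83, 11.95 and 11.68 in U373 monocultures and 13.36, 12.86 and 12.86 in U87MG monocultures, with -1.20 ± 0.21 (limma, adjusted p = 0.000135). EDEM1 had 5.63, 6.62 and 6.63 in U373 monocultures and 7.51, 7.17 and 7.51 in U87MG monocultures, with -1.11 ± 0.30 (limma, adjusted p = 0.00559). None of these 5 genes overlapped between the lines.

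The call of ATF4 rested on its probes. As the mean of 3 probes it was lower in U373 monocultures by 0.67 ± 0.26 (limma, adjusted p = 0.0395), with its brightest probe by 0.16 (adjusted p = 0.654). The dimmest of the 3 had 3.87, 3.46 and 4.97 in the U373 monocultures, against 5.42, 5.72 and 5.62 in the U87MG monocultures. ATF4 and CANX also lost the call on leaving out single arrays: ATF4 without replicate 1 or 2 of the U373 monocultures or any U87MG monoculture (adjusted p 0.0610 to 0.144), and CANX without any U373 monoculture, U87MG monoculture replicate 1 or 3, or U373 co-culture replicate 3 (adjusted p 0.0502 to 0.171). SYVN1 lost it without replicate 2 of either monoculture (adjusted p 0.0620 and 0.0804).

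More members separated than passed. In 11 members the U373 monocultures all lay above the U87MG monocultures (29.9% of all tested genes) and in 8 all below (33.9%). Among the 8 was DDIT3, whose levels of 7.80, 7.36 and 7.96 in U373 monocultures stood against 8.98, 8.94 and 8.88 in U87MG monocultures, and among the 11 was TRIB3, with 8.17, 8.55 and 8.21 in U373 monocultures and 6.64, 7.14 and 7.18 in U87MG monocultures. The limma fit shares 1 estimate of spread over the 4 groups, which the U373 co-cultures widen for these genes, and in it DDIT3 had -1.22 ± 0.68 (adjusted p = 0.136) and TRIB3 1.32 ± 0.58 (adjusted p = 0.0621). With only the monocultures in the fit 17 members passed, 9 higher and 8 lower in U373 cells, among them DDIT3 (adjusted p = 5.09e-05) and TRIB3 (adjusted p = 4.15e-05). Without U373 co-culture replicate 2 in the 4-group fit, 18 passed. With the replicate number as a block, 13 passed, PDIA4, TRIB3 and PPP1R15A in addition (limma, adjusted p 0.0478, 0.0225 and 0.0241). The shares over all tested genes in these fits are not set beside the counts. In the main fit that share was 58.9%, so the counts do not show the members to differ more than other genes.

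In co-culture 13 of 35 members passed between U373 and U87MG cells, 37.1% against 57.2% of all tested genes. Of these 11 were higher in U373 cells (25.5% of all tested genes) and 2 lower (31.7%). HYOU1, DNAJB9, PHGDH, SYVN1, SEL1L and CEBPB kept the call and direction they had in monoculture. CALR, PDIA4, CHAC1, TRIB3, ASNS, PSPH and MTHFD2 passed in co-culture and not in monoculture, all higher in U373 cells, while ATF4, CANX, EDEM1 and STC2 passed in monoculture and not in co-culture. These sets depend on the shared estimate of spread: with only the monocultures in the fit, CALR (adjusted p = 0.0164), TRIB3 (4.15e-05), PSPH (0.0268) and MTHFD2 (0.0318) passed in monoculture too, and with the replicate block TRIB3 and PDIA4 did. Whether a line difference itself differed between co-culture and monoculture is the test of the difference given above, which no member passed.

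TRIB3 had 8.35, 11.64 and 8.94 in the U373 co-cultures, against 6.26, 7.32 and 7.41 in the U87MG co-cultures, a log2 fold change of 2.65 ± 0.58 (SE, limma, adjusted p = 0.00115). MTHFD2 had 9.20, 10.86 and 9.63 in U373 co-cultures and 8.46, 8.80 and 8.51 in U87MG co-cultures, with 1.30 ± 0.31 (limma, adjusted p = 0.00230). PSPH had 7.23, 8.59 and 7.49 in U373 co-cultures and 6.84, 6.57 and 6.98 in U87MG co-cultures, with 0.97 ± 0.27 (limma, adjusted p = 0.00634). These 3 genes separated the lines on all co-culture arrays, and their calls held without any single array. For PSPH this was the mean of 2 probes. Its brighter probe alone overlapped, with 8.74 in U373 co-culture replicate 1 and 8.77 in U87MG co-culture replicate 1.

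CHAC1 met the filter for testing only through the U373 co-cultures, so its call here is no independent support. It was not above background on any U87MG co-culture. The mean of the U373 co-cultures over the background floors of the U87MG co-cultures gave a difference of at least 2.62-fold. U373 co-culture replicate 1 was itself at background, below U87MG co-culture replicates 2 and 3, and without U373 co-culture replicate 2 the bound was 1.40-fold, an alternative chosen after seeing the data. ASNS had 7.67, 9.83 and 8.49 in the U373 co-cultures, against 6.98, 7.71 and 7.75 in the U87MG co-cultures, and overlapped, with 1.18 ± 0.41 (SE, limma, adjusted p = 0.0238). Without U373 co-culture replicate 2 the calls of ASNS (adjusted p = 0.137), CHAC1 (0.0985), DNAJB9 (0.0698) and PDIA4 (0.159) were lost. They were also lost without U87MG co-culture replicate 1 (ASNS, CHAC1 and DNAJB9), replicate 2 (PDIA4) or replicate 3 (DNAJB9 and PDIA4), at adjusted p of 0.0558 to 0.127. Without U373 co-culture replicate 2, 14 members passed (52.5% of all tested genes), 7 higher and 7 lower in U373 cells, and without replicate 1, 21 passed (53.6% of all tested genes), 19 of them higher. Levels did not overlap for 8 members higher (27.9% of all tested genes) and 2 lower (34.6%).

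**Figure D3:**
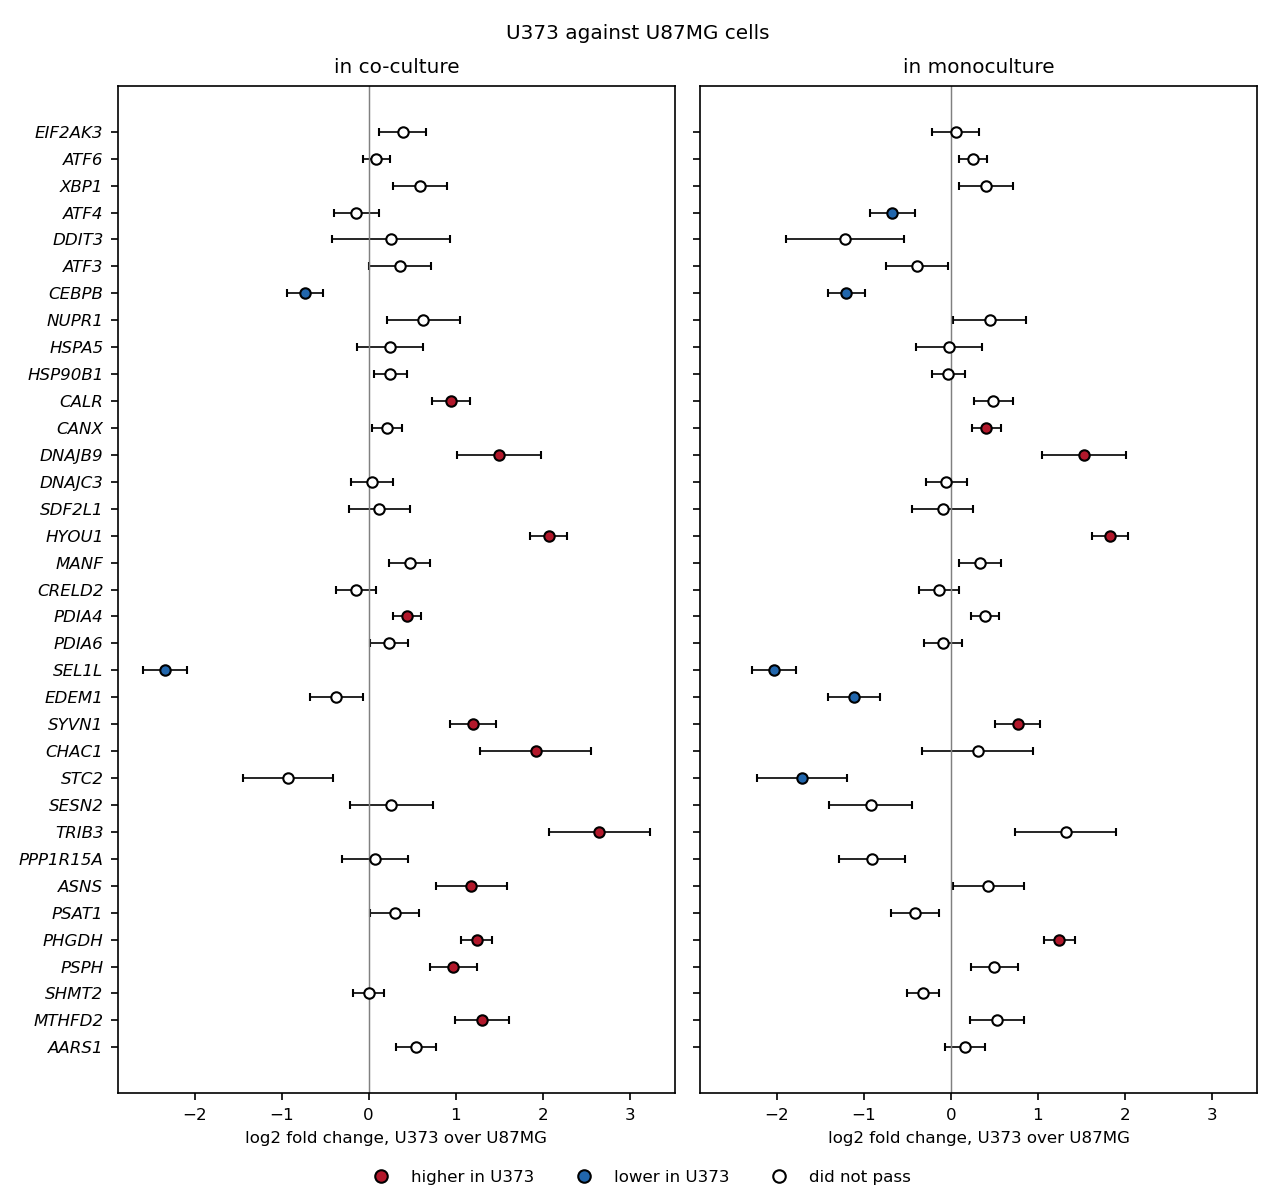
Log2 fold change of U373 over U87MG cells for the 35 tested members (point, with SE from limma), in co-culture on the left and in monoculture on the right; red and blue mark adjusted p under 0.05, higher and lower in U373 cells. HYOU1 (2.07 and 1.83) and SEL1L (-2.34 and -2.03) keep their places, while TRIB3 stands at 2.65 in co-culture and 1.32 in monoculture.

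Further genes of the same pathways, taken from lists by function, were measured beside the members. No gene of these 4 lists was called in either co-culture comparison or in the difference with limma. Unadjusted p-values under 0.05 were found between U373 co-culture and monoculture for 9 genes of the ATF4 and tRNA charging list, 4 of the folding list, 1 of the degradation list and 4 of the regulators, and in U87MG cells for 2, 3, 3 and 1, and for the difference for 3, 0, 2 and 0. The shares over all tested genes were 9.51%, 7.01% and 6.26% for these comparisons, and the counts of the folding list (4 of 41) and of the degradation list (1 of 24) in U373 cells lay near or under that share. On U373 co-culture replicate 2 the 36 tested further targets of ATF4 and tRNA charging genes lay a median of 1.03 above the U373 monoculture mean, 19 of them by more than 1, and 33 (91.7%) were highest of the 6 U373 arrays, against 21.7% of all tested genes. Their median was 0.31 on replicate 3 and -0.07 on replicate 1. On the same array the medians were 0.20 for 41 further ER folding and translocation genes, 0.21 for 24 further degradation genes and 0.11 for 17 further eIF2alpha kinases, phosphatase subunits and regulators. Highest of the 6 U373 arrays on it were 39.0% of the folding genes, 45.8% of the degradation genes and 35.3% of the regulators, against 21.7% of all tested genes. The wider ATF4 list thus stood with the members on this array. The medians of the wider ER lists lay nearer to that of all tested genes, though their genes were highest there more often than all tested genes.

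In that ATF4 list GDF15 and NFIL3 were singled out after their values were seen. GDF15, a secreted stress cytokine, had 9.27, 13.01 and 10.86 in the U373 co-cultures, against 8.09, 8.70 and 8.26 in the U373 monocultures. All 3 co-cultures lay above the monocultures, with a log2 fold change of 2.70 (limma, adjusted p = 0.105). NFIL3, a leucine zipper repressor, had 6.03, 8.12 and 6.61 in U373 co-cultures and 5.17, 5.65 and 5.60 in U373 monocultures (log2 fold change 1.45, limma, adjusted p = 0.173). Both showed the order of the members, replicate 2, 3, 1.

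**Figure D4:**
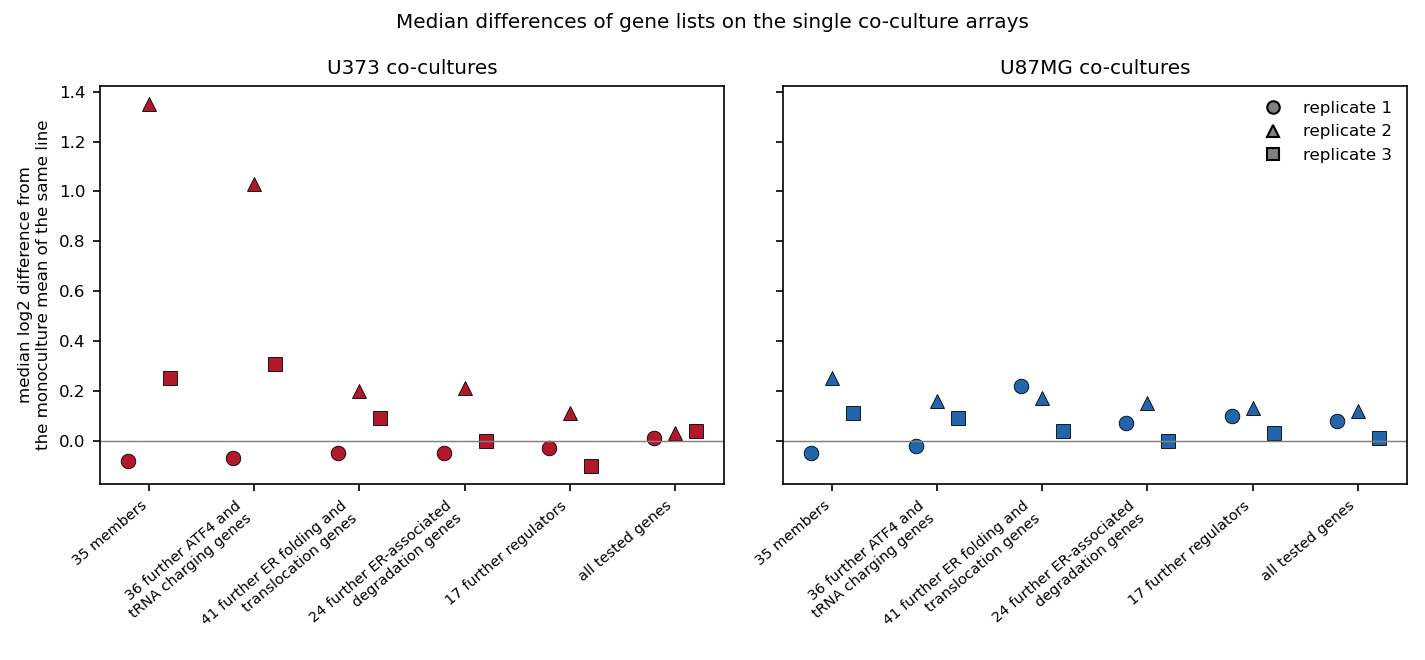
Median difference (log2) from the monoculture mean of the same line over the members, 4 further lists and all tested genes, one point for each co-culture array, U373 cells on the left and U87MG cells on the right. U373 co-culture replicate 2 stands at 1.35 for the members and 1.03 for the further ATF4 and tRNA charging genes, and every other point lies at or under 0.31.

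Between the lines 41.2% to 55.6% of the genes of a wider list passed in monoculture, against 58.9% of all tested genes (27.7% higher, 31.2% lower), and 41.2% to 47.2% in co-culture, against 57.2% (25.5% higher, 31.7% lower). In monoculture 20 of 36 ATF4 and tRNA charging genes passed (11 higher in U373 cells, 9 lower), as did 21 of 41 folding and translocation genes (14 higher, 7 lower), 12 of 24 degradation genes (7 higher, 5 lower) and 7 of 17 regulators (2 higher, 5 lower). In co-culture the counts were 17 (14 higher, 3 lower), 17 (10 higher, 7 lower), 10 (7 higher, 3 lower) and 7 (2 higher, 5 lower). The amino acid transporter SLC7A5 had the largest difference among the genes above background on all arrays of both lines, with 10.67, 10.88 and 10.86 in the U373 monocultures, against 7.00, 7.34 and 8.30 in the U87MG monocultures (log2 fold change 3.25 ± 0.35, limma, adjusted p = 1.25e-06). In co-culture it differed by 3.94 ± 0.35 (limma, adjusted p = 1.45e-07). The sestrin SESN3 was not above background in U87MG cells and was at least 5.29-fold higher in U373 monocultures and at least 4.48-fold higher in U373 co-cultures. CBS, of cysteine synthesis, was higher in U373 monocultures by 3.24 ± 0.34 (above background on 1 of 3 U87MG monocultures), the signal peptidase subunit SEC11C lower by 2.17 on the log2 scale and the oxidase ERO1A lower by 1.59. The translocon subunit SSR1 was higher by 1.72 ± 0.15, the site-1 protease MBTPS1, which cuts ATF6, by 1.23 ± 0.17, and the eIF2alpha kinase EIF2AK2 by 1.18 ± 0.18.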

How the data were processed

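RNA of 12 samples was hybridised to Illumina HumanWG-6 v3 arrays. The authors summarised signals in BeadStudio and deposited values after variance stabilization on a natural log scale. The base of the log was judged from the values: the brightest, 10.27, is a signal of 28739 as a natural log and of 1231 as a log2, and only the natural log gives the range usual for this scanner. Division by ln 2 then gave log2 units. A further deposited table holds 24 columns of signals and detection values without sample names, which were not used.

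Probes were named through the platform annotation, with symbols of RefSeq GRCh38.p14, and those of 1 gene were averaged. Only the 27578 of 48803 probes with a single gene were used, leaving out 13 with more and 21212 with no gene. A gene was tested when a probe exceeded the mode of its array plus 3 SD on at least 3 of 12 arrays. Groups were tested by limma 3.58.1 under R 4.3.3 (lmFit and eBayes), with a mean for each of the 4 groups and no covariate, and p-values were adjusted over all 10696 tested genes by Benjamini-Hochberg with a threshold of 0.05. The fit was tested on simulated data in which each gene had the same SD in every group. The members did not have this in the U373 co-cultures, so the simulation does not bear on their wider spread. A lower bound of a fold change sets the bright mean against the higher of the background floor and the dim value of each array.

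The members, the further lists and the rules were chosen with earlier results of these data known. Array values are given for the members with the smallest p in the co-culture comparisons and the largest changes between the lines, and for others by role; of each further list, genes were named among the 4 with the largest change past the threshold. After group means were taken off, arrays of the same number correlated at 0.124, 0.117 and 0.206 between the monocultures. They correlated at 0.165, 0.155 and 0.133 between the co-cultures and 0.127, 0.173 and 0.148 between the U87MG cultures. Between the U373 cultures they correlated at 0.193, -0.102 and 0.555. Arrays of different numbers were not set beside these and the labels name no shared day, so a pairing was not shown. The main fit is unpaired, and the replicate number entered as a block only as an alternative. The number of arrays limits the precision, and so do the spread between replicates and, for dim genes, the background.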

Additional observations from a re-analysis of the deposited data

How the results depend on the processing

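Alternatives were the brightest probe of a gene, only probes above background, no filter on dim genes, background limits at 2 or 5 SD, a further quantile normalization, a trended and robust variance prior, array weights, only the groups compared, the replicate number as a block and leaving out each array. For single genes 38 member results were followed. These were the members called between the lines in the main fit, and the 5 with the smallest p in each co-culture comparison and in the difference. Members not called between the lines in the main fit were thus not followed there, and their gains are not in these counts. Without leaving out arrays, 365 values kept direction and side of the threshold, 1 gained and 7 lost the call. On leaving out an array 428 kept them, 5 gained and 23 lost it. No direction reversed among these results. Members called between U373 co-culture and monoculture were 1 with array weights (EDEM1, log2 fold change 1.43, limma adjusted p = 0.0381) and 0 to 10 without single arrays, the 10 without U373 co-culture replicate 1. Between the lines in monoculture they were 17 with only these groups and 7 to 18 without single arrays, and in co-culture 10 to 21. In U87MG cells and for the difference of effects they were 0 to 0. Shares over all tested genes are not set beside the counts of this section. In the main fit they were 58.9% between the lines in monoculture and 57.2% in co-culture.

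With the replicate block, 0 members passed in U373 co-culture against monoculture, 0 in U87MG co-culture against monoculture, 0 in the difference, 13 between the lines in monoculture and 13 in co-culture. The block changed no call beyond those of PDIA4, TRIB3 and PPP1R15A in monoculture. CHAC1 lost its call between the co-cultures under the robust prior (adjusted p = 0.0535), ASNS with its brightest probe (log2 fold change 0.90, adjusted p = 0.110), PDIA4 without the filter (adjusted p = 0.0663) and with only these groups (adjusted p = 0.0559). Without the filter ATF4 and CANX lost theirs between the monocultures (adjusted p 0.0696 and 0.0880). The causes were not tested. Genes near the background limit, such as EIF2AK3, SEL1L, SESN2 and CHAC1, have the least certain folds.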
